A study of Mus musculus with 10 samples.

Results

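Small heat shock proteins are compact chaperones that hold unfolding proteins in solution, without using ATP, until larger chaperones refold them. The 6 genes described here, in round spermatids from testes heated to 42 °C or held at 33 °C, are Hspb1, Hspb6, Hspb8, Cryab, the testis gene Hspb9 and Hspb11. They were chosen by name, as members of this family, among the 55401 genes of the count table, and all 6 had a row there. Round spermatids are the haploid germ cells that meiosis leaves and that then build the acrosome and the tail. The libraries came from adult male CD1 mice, an outbred stock, in 2 groups of 5 mice with 1 library each. In the 42 °C group and in the 33 °C group alike, the mice were under isoflurane while the testes touched a water bath at that temperature for 30 minutes, and they were killed once they had woken up. Ribosomal RNA was removed from the total RNA of the isolated cells before stranded libraries were prepared. Every value therefore describes RNA after recovery from the anaesthetic and after isolation of the cells, and p-values measure the spread between these mice.

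In many cell types, heat activates HSF1, the heat shock transcription factor, which binds inverted repeats of the letters GAA in promoters and raises HSP70 and several small heat shock protein mRNAs. The family is defined by the alpha-crystallin domain, through which the proteins pair and then assemble into oligomers. Some members are abundant in muscle or in the lens, and Hspb9 is known for its expression in testis. HSPB11, also called IFT25, is a member by name. It works as a subunit of intraflagellar transport complex B, which carries cargo along growing cilia and sperm tails.

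None of the 6 small heat shock protein genes was found to differ between 42 °C and 33 °C in edgeR, where 5 were tested, and their levels in these cells spanned a far wider range than any difference between the temperatures. Hspb9 was among the most abundant transcripts per length, Hspb6 and Hspb11 were expressed at moderate levels, Hspb1 and Cryab were close to silent, and Hspb8 was barely counted. In the quasi-likelihood test of edgeR, 0 of the 5 genes that passed the filter on low counts had an adjusted p under 0.05, and 0 had an unadjusted p under 0.05. Across all 26025 features tested, 0.0922% were called in either direction at the adjusted threshold, 0.0884% as higher and 0.00384% as lower, and 11.5% were under the unadjusted one. DESeq2 and limma voom also called 0 of the 5, where they called 1.11% and 0.588% of all features. The groups overlapped in CPM for all 6 genes, where 2.00% of all features had groups that did not overlap. Of the 5 tested genes, 4 had a negative log2 fold change and 1 a positive one, with a median of -0.20. The median of all features was -0.01, and 51.1% of all features were negative.

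The promoter sequences of 3 genes are shown, picked for holding or lacking a pair of inverted GAA letters. Hspb1, of low level, and the downstream start of Hspb6, of moderate level, hold it. Hspb9, the most abundant, does not. Hspb11 and the upstream start of Hspb6, also of moderate level, lack it too and are not shown. Whether the pair goes with the level was not tested. The sequences are the 250 bases before a RefSeq transcript start (GRCm38.p6, plus strand), with every GAANNTTC or TTCNNGAA in capitals. Each of these 2 patterns is its own reverse complement, so both strands are covered.
Hspb1, chr5:135887669-135887918: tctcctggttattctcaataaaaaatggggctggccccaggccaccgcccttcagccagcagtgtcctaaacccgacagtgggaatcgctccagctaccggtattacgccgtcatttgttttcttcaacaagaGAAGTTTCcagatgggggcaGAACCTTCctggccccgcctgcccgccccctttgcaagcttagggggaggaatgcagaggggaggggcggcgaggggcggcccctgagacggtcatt
Hspb6, downstream start, chr7:30553051-30553300: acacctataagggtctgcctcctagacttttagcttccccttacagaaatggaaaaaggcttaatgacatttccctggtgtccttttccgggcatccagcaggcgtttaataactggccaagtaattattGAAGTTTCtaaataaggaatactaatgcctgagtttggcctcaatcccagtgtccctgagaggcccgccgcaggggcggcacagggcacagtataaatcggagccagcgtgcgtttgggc
Hspb9, chr11:100713679-100713928: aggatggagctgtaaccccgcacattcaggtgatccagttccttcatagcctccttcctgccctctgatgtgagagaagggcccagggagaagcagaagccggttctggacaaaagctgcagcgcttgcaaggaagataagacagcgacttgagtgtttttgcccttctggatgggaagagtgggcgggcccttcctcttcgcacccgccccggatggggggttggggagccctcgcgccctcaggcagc

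Promoter windows of 300 bases, 250 before to 50 after the start, were matched for 5 of the 6 genes, all but Cryab. Hspb6 had 2 starts. The 5 genes had 6 windows in all, and 3 of these windows, from 3 different genes, held the paired pattern. Of all 32851 promoter windows of the same length, 15.1% held it. Hspb1 held 2 copies, at 117 to 110 and at 97 to 90 bases before the start. Hspb6 held 1 copy at its downstream start, and Hspb8 held 1 within the window, just past the start. The same 8 letters, GAAGTTTC, made up the match in Hspb1, Hspb6 and Hspb8, and 1.21% of all windows held these letters on either strand. This identity was noticed after the matches were seen. The windows of Hspb9 and Hspb11 held neither pattern. No window of these 5 genes held the longer repeat of 3 GAA units in alternating orientation, spaced by 2 bases. Of all windows, 0.603% held it. The cAMP response element TGACGTCA, which the spermatid activator CREM binds, was in none of these windows and in 1.79% of all. Its 5-letter part TGACG, read on either strand and contained in the full element, was in the windows of Hspb1 and of the upstream start of Hspb6, and in 20.8% of all. A match describes letters in a window, not a site in use.

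Hspb9, the testis member of the family (ENSMUSG00000017832, chromosome 11, 100713850 to 100714575, GRCm38, plus strand), was the most abundant of the 6. Its CPM, counts relative to the library size after scaling with the TMM method of edgeR, were 450, 312, 460, 345 and 358 in 42 °C replicates 1 to 5, against 338, 383, 339, 379 and 460 in 33 °C replicates 1 to 5. The highest values of the groups were nearly equal, and the lowest was in 42 °C replicate 2. Hspb9 averaged 385 ± 66.4 CPM at 42 °C, against 380 ± 49.7 CPM at 33 °C (SD, n = 5 each). On the log2 scale the difference was 0.02 with an SE of 0.14 (edgeR adjusted p = 0.953), and the 95% interval of the fold ran from 0.821 to 1.25. With 177398 counts at 42 °C and 182648 at 33 °C behind it, counting error is small beside the spread between mice. In bulk RNA, fewer cells of a type and less RNA per cell cannot be told apart.

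Hspb6 encodes HSP20, a chaperone abundant in smooth and cardiac muscle (ENSMUSG00000036854, chromosome 7, 30552178 to 30555443, plus strand). It had 28.6, 19.2, 27.9, 24.6 and 27.6 CPM in 42 °C replicates 1 to 5, against 27.6, 24.5, 29.0, 32.7 and 26.5 CPM in 33 °C replicates 1 to 5. Apart from 42 °C replicate 2, every heated library lay within the range of the 33 °C libraries. The means were 25.5 ± 3.88 CPM at 42 °C, against 28.1 ± 3.06 CPM at 33 °C. The difference on the log2 scale, -0.13 with an SE of 0.13, did not pass (edgeR adjusted p = 0.654), and the interval of the fold was 0.744 to 1.11. Without 42 °C replicate 2 the log2 fold change was -0.02.

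Hspb11, the intraflagellar transport subunit (ENSMUSG00000063172, chromosome 4, 107253593 to 107279938, plus strand), had 11.7, 6.88, 10.8, 9.74 and 9.23 CPM in 42 °C replicates 1 to 5. The 33 °C replicates 1 to 5 had 10.1, 12.1, 10.2, 11.4 and 11.6 CPM. At 42 °C, 3 libraries were below every 33 °C library and 2 lay among them. The means were 9.66 ± 1.82 CPM at 42 °C, against 11.1 ± 0.902 CPM at 33 °C. The log2 difference of -0.20 with an SE of 0.15 (edgeR adjusted p = 0.571) had the smallest p of the 5 genes, and its fold interval was 0.695 to 1.09. Without 42 °C replicate 2 the log2 fold change was -0.07.

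That library was the lowest of all 10 for Hspb9, Hspb6 and Hspb11. It also had the lowest total, 60623568 counts, where the other 9 libraries had 90715506 to 117723075, and the largest share of counts on transposable elements, 16.2%, where the others had 4.62% to 9.07%. The part of these properties in the values of the 3 genes was not tested.

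**Figure D1:**
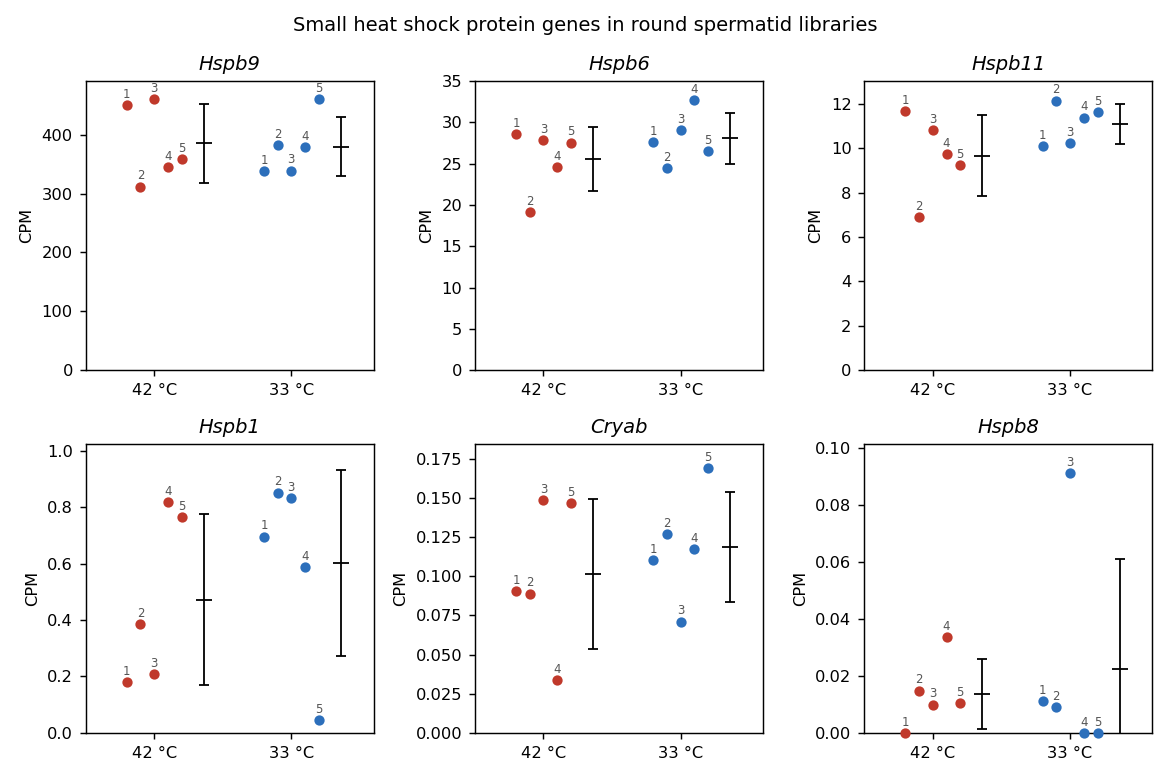
CPM of the 6 genes (vertical axes, each from 0) in the 5 libraries at 42 °C (red) and the 5 at 33 °C (blue), numbered by replicate, with the mean and SD of each group as a black bar. The groups overlap in every panel, Hspb1 falls to 0.0451 CPM in 33 °C replicate 5, and 9 of the 11 Hspb8 counts at 33 °C lie in replicate 3.

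Hspb1 encodes the small heat shock protein that binds unfolding proteins and actin filaments and is phosphorylated by MAPKAPK2 (ENSMUSG00000004951, chromosome 5, 135887919 to 135889563, plus strand). It had 0.181, 0.386, 0.208, 0.818 and 0.764 CPM in 42 °C replicates 1 to 5, which rest on 18, 26, 21, 73 and 73 counts. The 33 °C replicates 1 to 5 had 0.695, 0.851, 0.832, 0.587 and 0.0451 CPM, from 63, 94, 82, 55 and 4 counts. Both groups thus held libraries of about the same high level and libraries far below it, with 3 low ones at 42 °C and 1 at 33 °C. The means were 0.471 ± 0.303 CPM at 42 °C, against 0.602 ± 0.329 CPM at 33 °C. The log2 difference was -0.36 with an SE of 0.60 (edgeR adjusted p = 0.788), and the interval of the fold ran from 0.318 to 1.92, which spans both a fall and a rise. Without 33 °C replicate 5 the value was -0.61 (edgeR adjusted p = 0.492).

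Markers of somatic testis cells varied in the same libraries. The 10 markers of Leydig cells, which make testosterone, summed to 3.20, 3.45, 3.42, 5.99 and 8.38 CPM in 42 °C replicates 1 to 5, against 4.10, 4.94, 20.5, 3.19 and 4.33 CPM in 33 °C replicates 1 to 5. The 12 markers of Sertoli cells, which nurse the germ cells, summed to 9.40, 7.46, 9.59, 11.7 and 18.2 CPM at 42 °C, against 9.23, 9.92, 13.8, 4.02 and 4.32 CPM at 33 °C. At 42 °C the 2 libraries with the most Hspb1, replicates 4 and 5, were also the 2 highest for both lists. They were the 2 highest heated libraries for endothelial markers too (27.3 and 28.7 CPM). The same held for markers of elongating spermatids, a later germ cell stage (5150 and 8095 CPM). It did not hold for round spermatid, spermatocyte, spermatogonia, stromal, macrophage or erythroid markers. At 33 °C replicate 5, the lowest for Hspb1, was second lowest for Sertoli markers and not low for Leydig markers. The 10 markers of peritubular myoid and smooth muscle cells summed to 113 to 204 CPM at 42 °C and to 60.9 to 149 CPM at 33 °C, and 33 °C replicate 5 was the highest of its group. Most of that sum was Actg2, while Acta2 averaged 1.29 CPM at 42 °C and 1.22 CPM at 33 °C. In the Sertoli list Clu alone averaged 5.72 CPM at 42 °C and 3.74 CPM at 33 °C. Vwf alone averaged 13.6 CPM at 42 °C and 11.0 CPM at 33 °C in the endothelial list. A single gene thus weighs heavily in these sums too. The Sertoli markers Fshr and Rhox5 and the muscle marker Lmod1 averaged under 0.1 CPM over the 10 libraries. The part of these cells in the Hspb1 values was not tested.

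**Figure D2:**
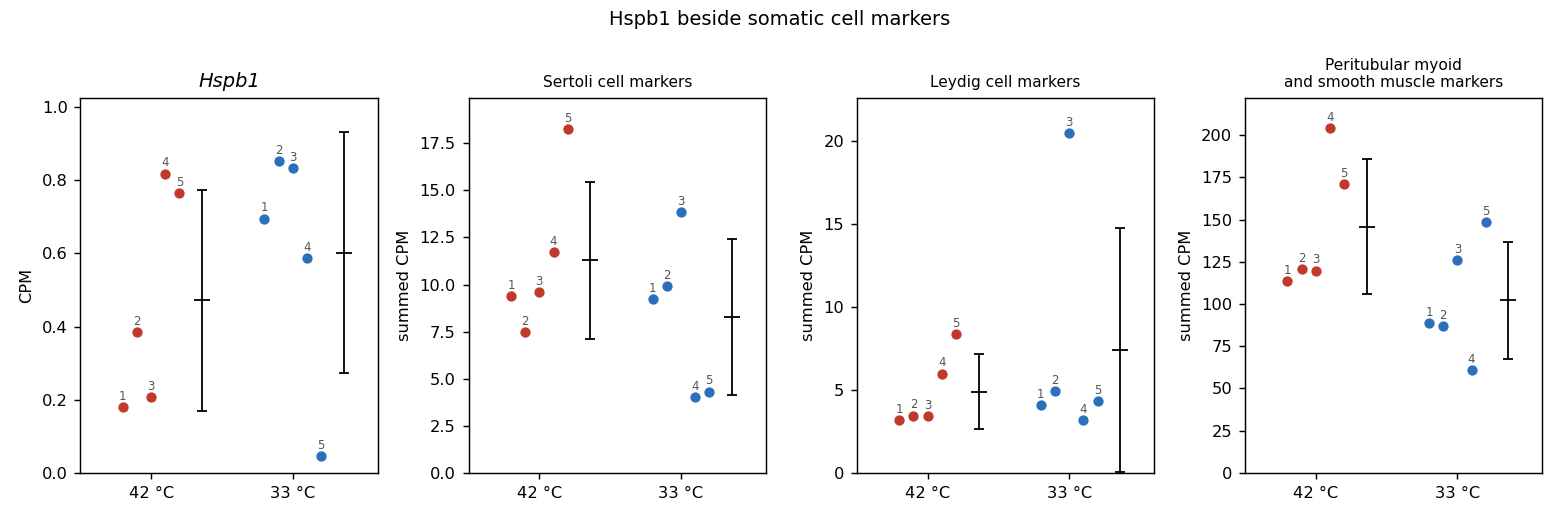
CPM of Hspb1 and summed CPM of the Sertoli, Leydig and peritubular marker lists (vertical axes from 0) by library at 42 °C (red) and 33 °C (blue), numbered by replicate, with mean and SD as black bars. At 42 °C, replicates 4 and 5 are the 2 highest in all 4 panels, while at 33 °C replicate 5 is lowest for Hspb1 and highest for the peritubular list.

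Cryab encodes alpha-B crystallin, a chaperone of lens and muscle (ENSMUSG00000032060, chromosome 9, 50751325 to 50756636, plus strand). It had 0.0904, 0.0890, 0.149, 0.0336 and 0.147 CPM in 42 °C replicates 1 to 5, and 0.110, 0.127, 0.0710, 0.117 and 0.169 CPM in 33 °C replicates 1 to 5. These values come from 47 counts at 42 °C and 57 at 33 °C, and the groups overlapped almost fully. The log2 difference was -0.21 with an SE of 0.39 (edgeR adjusted p = 0.814), with a fold interval of 0.478 to 1.57. Hspb8, whose protein works with BAG3 to send misfolded proteins to autophagy (ENSMUSG00000041548, chromosome 5, 116408491 to 116422864, minus strand), did not pass the filter on low counts. It had 0, 1, 1, 3 and 1 counts in 42 °C replicates 1 to 5, and 1, 1, 9, 0 and 0 counts in 33 °C replicates 1 to 5. A count of 0 allows up to 3 counts, which is 0.0301 CPM in 42 °C replicate 1, and 0.032 and 0.0338 CPM in 33 °C replicates 4 and 5. These limits cover counting error only. With so few counts, even a large difference in Hspb8 could be missed. Fitted with no filter on low counts, its log2 difference was -0.64 with an SE of 1.00.

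Per exon length, the 6 genes had a clear order of levels. Hspb9 had a mean of 531 CPM per kb of exon at 42 °C and 523 at 33 °C, and ranked 41 of 24852 tested genes with a known exon length. Hspb6 followed with 11.1 CPM per kb at 42 °C and 12.2 at 33 °C (rank 4614), and Hspb11 with 4.67 at 42 °C and 5.35 at 33 °C (rank 7440). Hspb1 had 0.457 at 42 °C and 0.584 at 33 °C (rank 16376), and Cryab 0.0687 at 42 °C and 0.0804 at 33 °C (rank 23054). Hspb8 had 0.00706 at 42 °C and 0.0114 at 33 °C. The ranges over the 10 libraries did not overlap between Hspb9, Hspb6 and Hspb11, nor between Hspb11 and Hspb1. Those of Hspb1 and Cryab overlapped, because of 33 °C replicate 5, and those of Cryab and Hspb8 overlapped too. Of the summed CPM per kb of the 6 genes, Hspb9 made up 96.6% to 97.3% in the 42 °C libraries and 96.2% to 97.3% in the 33 °C libraries.

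**Figure D3:**
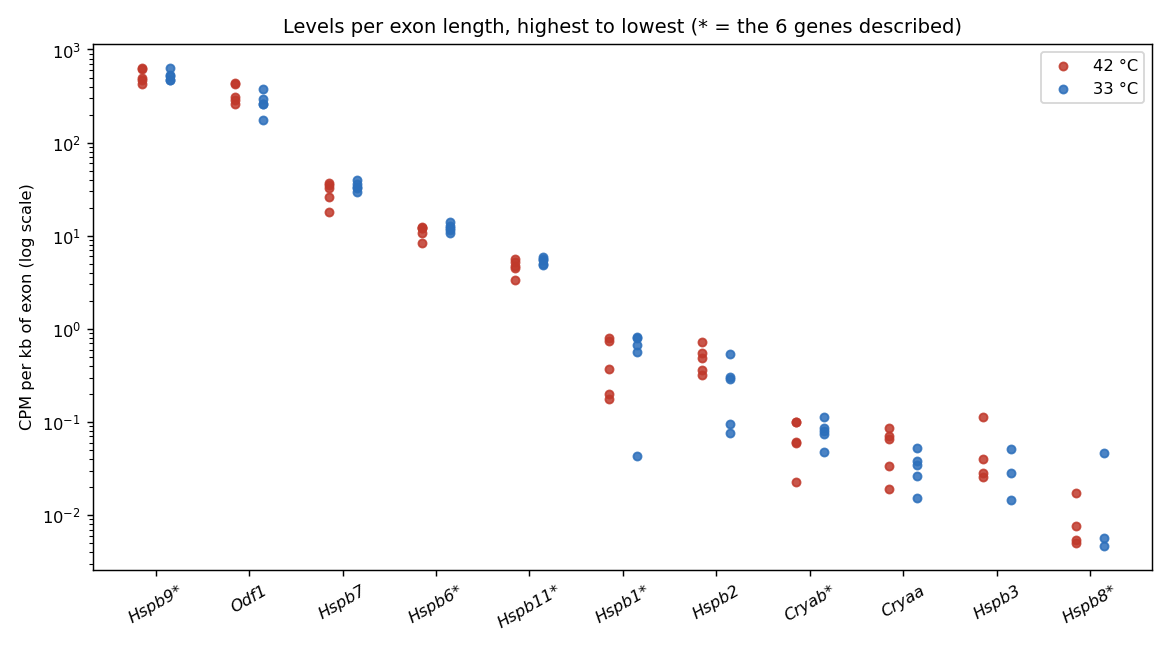
CPM per kb of exon on a log scale for the 6 genes (starred) and 5 other family members, with 1 point per library at 42 °C (red, left) and 33 °C (blue, right); libraries with 0 counts are not drawn. Hspb9 and Odf1 stand above 100 CPM per kb in every library, and the 5 genes from Hspb2 rightward together with Hspb1 stay under 1.

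The coefficient of variation between libraries, which includes counting error, was larger for Hspb1 and Cryab than for the 3 genes of higher level. It was 17.2% for Hspb9, 15.2% for Hspb6 and 18.8% for Hspb11 at 42 °C, against 13.1%, 10.9% and 8.13% at 33 °C. For Hspb1 it was 64.3% at 42 °C and 54.7% at 33 °C, and for Cryab 47.0% at 42 °C and 29.6% at 33 °C. Counting error alone, taken as the Poisson value at the mean count, gives 15.4% at 42 °C and 13.0% at 33 °C for Hspb1, and 32.6% at 42 °C and 29.6% at 33 °C for Cryab. The variation of Cryab at 33 °C was thus no larger than counting error. The ratio of Hspb9 to Hspb11 in CPM, a measure that does not depend on the scaling of the libraries, was 35.4 to 45.3 at 42 °C and 31.5 to 39.6 at 33 °C. The ratio of Hspb6 to Hspb11 was 2.45 to 2.99 at 42 °C and 2.02 to 2.87 at 33 °C. Both ratios overlapped between the groups, that of Hspb9 to Hspb11 only because of 33 °C replicate 5. The other 33 °C libraries had ratios of Hspb9 to Hspb11 from 31.5 to 33.5, below every heated library. The medians of this ratio were 38.8 at 42 °C and 33.3 at 33 °C, and the difference was not tested.

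Of the 5 other family genes listed, 3 passed the filter on low counts and 0 passed the edgeR test in either direction. Odf1, also named HSPB10, an outer dense fibre protein of the sperm tail, averaged 381 ± 90.9 CPM at 42 °C, against 301 ± 79.1 CPM at 33 °C. The log2 difference was 0.34 with an SE of 0.20 (edgeR adjusted p = 0.494). Odf1 is also 1 of 12 listed markers of elongating spermatids, the later stage, of which 12 were positive and 0 passed the test, with a median log2 fold change of 0.36. Their summed level was 3349 to 8095 CPM at 42 °C and 2646 to 5625 CPM at 33 °C, and the part of this stage in the Odf1 values was not tested. Hspb7, known from heart and skeletal muscle and named here after its level was seen, averaged 82.3 ± 21.1 CPM at 42 °C, against 94.4 ± 10.2 CPM at 33 °C (log2 fold change -0.20, SE 0.18, edgeR adjusted p = 0.620). Per exon length it stood between Hspb9 and Hspb6, at 29.7 CPM per kb at 42 °C and 34.1 at 33 °C. Hspb2, a muscle member, averaged 0.409 ± 0.136 CPM at 42 °C, against 0.218 ± 0.156 CPM at 33 °C. The log2 difference of 0.90 with an SE of 0.47 did not pass (edgeR adjusted p = 0.469).

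**Figure D4:**
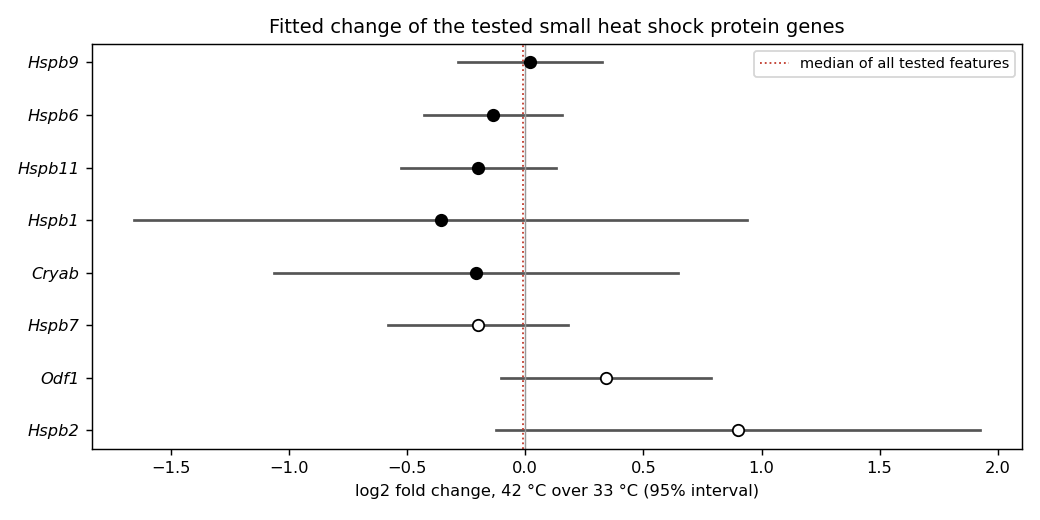
Fitted log2 fold changes, 42 °C over 33 °C, with 95% intervals, for the 5 tested genes (filled) and 3 other family genes (open); the dotted line is the median of all tested features. Every interval includes 0, and those of Hspb1, Cryab and Hspb2 are the widest.

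Small heat shock proteins hand their clients to HSP70 and its helpers. Of 12 such partners listed and tested, Hspa1a, the inducible HSP70, passed as higher and 0 passed as lower, with a median log2 fold change of -0.04. Hspa1a averaged 2.14 ± 1.04 CPM at 42 °C, against 0.278 ± 0.0987 CPM at 33 °C (log2 fold change 2.94, SE 0.36, edgeR adjusted p = 0.0106). Hspa1b, the other inducible HSP70 gene, averaged 6.45 ± 3.16 CPM at 42 °C, against 2.40 ± 1.06 CPM at 33 °C, and did not pass (log2 fold change 1.43, SE 0.36, edgeR adjusted p = 0.262). The 2 genes are near-identical copies, so reads could have been split between them in either way. Hsph1, a nucleotide exchange factor of HSP70, had a log2 difference of 0.22 with an SE of 0.10 (edgeR adjusted p = 0.443). Whether the change of Hspa1a differed from that of the small heat shock protein genes was not tested. The highest upper bound of the fold among the 5 was 1.92, for Hspb1.

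Of 7 listed regulators of small heat shock protein genes and proteins, 6 were tested and 0 passed in either direction, with a median of -0.11. Hsf1, the heat shock factor, averaged 46.5 ± 4.28 CPM at 42 °C, against 56.5 ± 5.36 CPM at 33 °C (log2 fold change -0.28, SE 0.11, edgeR adjusted p = 0.393). Mapkapk3, a kinase related to the HSPB1 kinase MAPKAPK2, had a log2 difference of 0.76 with an SE of 0.34 (edgeR adjusted p = 0.430). Hspb11 works with the other subunits of intraflagellar transport complex B. Of 19 listed names, some of them second names of a listed gene, 16 were in the table and were tested. Of these 0 passed, 14 were negative and 2 positive, with a median of -0.13, where Hspb11 itself had -0.20. Over all features, which include many of low counts, 51.1% were negative and the median was -0.01. The share among genes of like level was not computed, and the direction of the list was not tested. Ttc26 had -0.26 (SE 0.11, edgeR adjusted p = 0.430) and Ift46 had -0.29 (SE 0.15, edgeR adjusted p = 0.468). Ift27, whose protein binds IFT25 directly and which was named for that role, averaged 23.1 ± 2.59 CPM at 42 °C and 26.0 ± 1.35 CPM at 33 °C. The summed level of this list was lowest in 42 °C replicate 2, at 1357 CPM, where the other heated libraries had up to 1783 CPM and the 33 °C libraries 1543 to 1854 CPM.

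**Figure D5:**
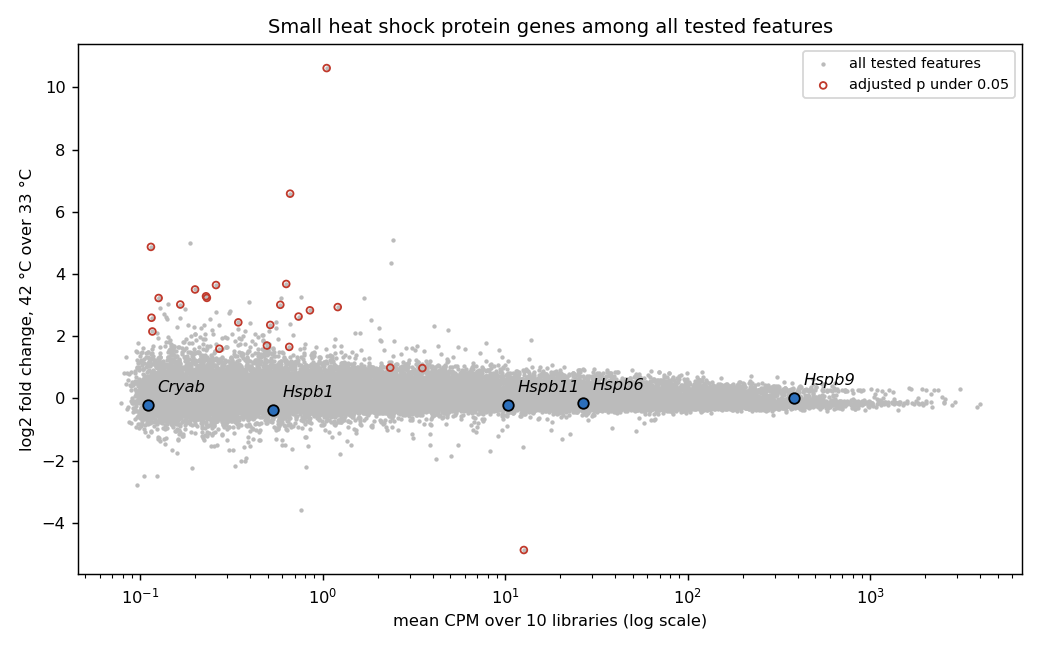
Log2 fold change, 42 °C over 33 °C, against mean CPM over the 10 libraries (log scale) for all 26025 tested features (grey), those with an edgeR adjusted p under 0.05 (red circles) and the 5 tested small heat shock protein genes (blue). The 5 genes lie within the grey cloud at every level from Cryab at 0.110 CPM to Hspb9 at 382 CPM.

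The surroundings of the genes bear on what their counts can hold, since the strand setting of the counting is not given in the sources used here. Overlaps were taken between whole genes, introns included, and not between exons. Cryab and Hspb2 lie head to head on opposite strands and share 1030 bases. Reads from any exon bases shared there cannot be assigned without strand. Hspb6 shares 122 bases with Proser3 and 3 with Lin37, both on the other strand, at means of 31.3 and 20.1 CPM at 42 °C and 34.2 and 22.2 CPM at 33 °C. It also contains the microRNA gene Gm38670 on its own strand, and Hspb11 contains the processed pseudogene Gm12850. Hspb9 overlaps no other gene. On the same strand within 20 kb, Hspb9 has Dhx58os, at 0.0179 CPM at 42 °C, against 0.0225 CPM at 33 °C, and Hspb1 has Srrm3, at 0.128 CPM at 42 °C, against 0.131 CPM at 33 °C, and the small nuclear RNA gene Gm22450. Hspb6 has U2af1l4, Gm49396, Igflr1 and 1700019A23Rik there, Hspb8 has Srrm4 and 4930562A09Rik, and Cryab has Alg9 and Fdxacb1. None of these neighbours passed the edgeR test, and those of lowest counts did not pass the filter.

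The genes whose pattern over the 10 libraries was most like that of each gene were found by the root mean square difference of log2 CPM, each gene centred on its own mean, among 11950 other genes with a symbol and a mean of at least 1 CPM. For Hspb9 they were Cfdp1 (0.0707), Hap1 (0.0723) and Spata33 (0.0725), where the median over all genes was 0.285. For Hspb6 they were Bcl6b (0.0633), Bcas1 (0.0713) and Boc (0.0752), against a median of 0.274. For Hspb11 they were Ube2f (0.0408), Optn (0.0432) and Immp2l (0.0468), against a median of 0.284. These points share library, depth and scaling, and the values describe likeness over these 10 libraries.

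The cell type label was checked against marker lists. The 15 round spermatid markers found in the table all passed the filter and summed to 2342 to 3428 CPM at 42 °C and 2241 to 3389 CPM at 33 °C, led by Dpy19l2. Elongating spermatid markers, led by Akap4, and the 14 spermatocyte markers, led by Syce1 (904 to 1223 CPM at 42 °C, 1131 to 1419 CPM at 33 °C), were also abundant, so stages other than round spermatids cannot be set apart from gene counts alone. Spermatogonia markers, led by Id4, summed to 25.1 to 29.8 CPM at 42 °C and 24.2 to 27.3 CPM at 33 °C. Stromal markers, led by Col3a1, summed to 11.0 to 16.2 CPM at 42 °C and 11.5 to 17.8 CPM at 33 °C. Endothelial markers, led by Vwf, summed to 20.9 to 28.7 CPM at 42 °C and 13.2 to 25.6 CPM at 33 °C. Macrophage markers, led by Adgre1, summed to 7.82 to 10.6 CPM at 42 °C and 8.40 to 12.1 CPM at 33 °C. Erythroid markers, led by Slc4a1, reached at most 0.771 CPM at 42 °C and 1.00 CPM at 33 °C. The Sertoli list was led by Clu and the Leydig list by Cyp17a1. In these marker lists, the Sertoli, Leydig and peritubular ones included, 0 genes passed the edgeR test in either direction.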

How the data were processed

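RNA of round spermatids from 10 mice was compared, 5 at 42 °C and 5 at 33 °C. The authors deposited 1 table of raw counts per gene and per transposable element subfamily, with no normalization; that they are counts was judged from the values, which are whole numbers with differing sums. The submitters' processing notes name DRAGEN, cutadapt and Trim Galore, and mm10 (GRCm38) as the build. Versions, the counting tool, its strand setting and its handling of multi-mapped reads were not given in the sources used here. Of 55141 gene identifiers shared with GENCODE M21 (GRCm38), 99.4% had the same position and strand.

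Totals were 60623568 to 102086073 counts at 42 °C and 92311183 to 117723075 at 33 °C. Libraries of one group all differed by more than sampling noise; 42 °C replicates 1 and 3 were the closest (13.9 by chi-square over its degrees of freedom). The test was the quasi-likelihood test of edgeR 4.0.16 (R 4.3.3) with the group as sole term, TMM factors over all features, and filterByExpr (minimum count 10, minimum total 15, smallest group 5), which left 26025 features. P-values were Benjamini-Hochberg adjusted over all of them, with a threshold of 0.05, and intervals are at 95%. The fit was tested on simulated data. DESeq2 1.42.0, limma 3.58.1 voom with sample quality weights, 3 other scalings, 2 other filters, a replicate block and leaving out each library were tried. CPM use the TMM-scaled library sizes; exon lengths are unions of GENCODE M21 exons, and likeness used log2 CPM with a prior count of 2. Promoters came from RefSeq (GRCm38.p6).

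The members and lists were chosen with earlier results of these data known. Named were all 6 genes, every gene past the threshold and 2 others of smallest p in each list of related genes, the most abundant marker of each cell type list, the 3 genes of most like pattern for each gene with a mean of at least 1 CPM, and genes that overlap a member or lie within 20 kb on the same strand; other genes named were chosen after their values were seen.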

Additional observations from a re-analysis of the deposited data

Results flagged for a closer look

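Hspb8 had 0.0913 CPM in 33 °C replicate 3, far from the other 4 libraries of that group, none of which had more than 1 count. Those 9 of the 11 counts at 33 °C decide the group's mean. The same library had the highest summed Leydig cell markers, 20.5 CPM. It was also the highest of all libraries for stromal (17.8 CPM) and erythroid (1.00 CPM) markers. Within the 33 °C group it was highest for Sertoli, spermatogonia and elongating spermatid markers. It was not highest there for round spermatid, spermatocyte, peritubular, macrophage or endothelial markers. The part of any of these cells in the Hspb8 counts was not tested. This Hspb8 value was the 1 such sample among 22 groups of values of the 11 family genes. Chance flags about 1 group in 20 where values are normally distributed. That rate need not hold for groups of so few counts.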

How the results depend on the processing

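No small heat shock protein gene was called under any of the 18 alternatives, in 88 fits of 5 genes, where the smallest adjusted p was 0.359, for Hspb9 with limma voom. Hspb6 and Hspb11 kept a negative log2 fold change in all 18, and Hspb1 in the 17 in which it was fitted, since it did not pass the filter at a mean of 1 CPM. Leaving out 1 library gave log2 fold changes from -0.053 to 0.14 for Hspb9, negative when 42 °C replicate 1 (-0.043), 42 °C replicate 3, 33 °C replicate 1 (-0.020) or 33 °C replicate 3 (-0.019) was left out, and from -0.39 to 0.010 for Cryab, positive without 42 °C replicate 4. Hspb1 ranged from -0.65 to -0.15 in those fits and was -0.89 with limma voom; the cause was not tested. The number of all features called higher, 23, was 15 with library totals, 257 with DESeq2, 124 with limma voom, 73 with no filter, 2 with a mean of at least 1 CPM and 10 to 21 without 1 library. The number called lower, 1, was 31 with DESeq2, 29 with limma voom, 3 with no filter, 0 with a mean of at least 1 CPM and 0 to 2 without 1 library. With no filter Hspb8 had a log2 difference of -0.64 with an SE of 1.00 (edgeR adjusted p = 0.824).

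The replicate numbers do not pair the libraries: the deviations of libraries with the same number had correlations of -0.53 to -0.13, and no library was closest to the one of its own number. With the number as a replicate block, 4 features were called higher and 0 lower, and no small heat shock protein gene was called (log2 fold change 0.01 for Hspb9, -0.14 for Hspb6, -0.22 for Hspb11, -0.41 for Hspb1 and -0.28 for Cryab).

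Depth limits Hspb8 (6 counts at 42 °C and 11 at 33 °C) and Cryab (47 at 42 °C and 57 at 33 °C). The libraries of the other 4 genes varied by more than counting error in both groups. By the coefficient of variation, Cryab did so at 42 °C only (47.0%, against 32.6% from counting error). Hspb8 did so at 33 °C only (175%, against 67.4%), where most of its counts lie in replicate 3.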

Other observations

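Hspb3, a small heat shock protein gene of muscle, and Cryaa, the lens alpha-A crystallin gene, did not pass the filter on low counts. Hspb3 had 13 counts over the 5 libraries at 42 °C and 7 at 33 °C, and Cryaa had 49 at 42 °C and 33 at 33 °C. The whole of Cryaa, 3927 bases with introns, lies within the antisense gene Gm50222, which averaged 23.3 CPM at 42 °C and 17.6 CPM at 33 °C. Where exons of the 2 genes overlap, which was not examined, reads of Cryaa cannot be told from those of Gm50222 without strand.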
